A study of Mus musculus with 6 samples.

Results

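Ribosome footprints were examined on 7 genes that carry the glucose signal of the pancreatic beta cell from sugar entry to calcium influx, namely Slc2a2, G6pc2, Abcc8, Kcnj11, Cacna1c, Cacna1d and Trpm5. The genes were taken by symbol from a deposited table of 21652 genes, and each symbol matched a single row. Ribosome profiling counts the short mRNA pieces shielded by ribosomes from nuclease, so a count depends both on how much mRNA is present and on how densely ribosomes sit on it, and these were not measured apart here. MIN6 cells with the genotype label sgLTN1, a guide RNA named for Ltn1 (3 libraries), were set against MIN6 cells with the genotype label sgNT, the control guide (3 libraries). MIN6 is a mouse insulin-secreting line that arose from a beta-cell tumour, and all libraries carry 1 batch label. The labels give neither a glucose concentration nor whether a group was a single clone, a pool or separate cultures, so the p-values measure the spread between these libraries, which may be technical.

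Beta cells couple blood glucose to insulin release through membrane voltage. Glucose enters through a facilitative transporter, is phosphorylated, and raises the ratio of ATP to ADP as it is burned. ATP closes the KATP channel, which is built from the pore protein Kir6.2 (Kcnj11) and the sulfonylurea receptor SUR1 (Abcc8), and the depolarisation that follows opens L-type calcium channels (Cacna1c, Cacna1d), whose calcium current triggers granule fusion. G6pc2 encodes an islet glucose-6-phosphatase that reverses glucose phosphorylation, and Trpm5 encodes a cation channel opened by intracellular calcium. Such channel proteins and transporters are made at the endoplasmic reticulum.

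The libraries held 4993245 to 11198735 counts in sgLTN1 and 4373467 to 7802364 in sgNT. Ltn1, which encodes a ubiquitin ligase of ribosome-associated quality control, read 65.3, 71.5 and 64.9 CPM in sgLTN1 libraries 1 to 3, against 143, 145 and 141 CPM in sgNT libraries 1 to 3, where CPM is counts per 1000000 after scaling the libraries to one another by TMM. Its footprints were thus lower in every sgLTN1 library but far from absent (log2 fold change -1.09, SE 0.07, adjusted p = 9.24e-05 in edgeR's test). All 10 markers of beta cells on the list used here were tested, with a summed level of 86496 to 107729 CPM in sgLTN1 and 89015 to 98922 CPM in sgNT. None of the 7 acinar and duct markers had enough counts to be tested (summed level 1.26 to 5.97 CPM in sgLTN1, 2.06 to 4.10 CPM in sgNT). The 6 alpha-cell markers summed to 5000.4 to 5682 CPM in sgLTN1 and 4376 to 4540 CPM in sgNT, most of it Ttr (4706 ± 334 CPM in sgLTN1, 3641 ± 109 CPM in sgNT, SD, n = 3 each), which was called higher (adjusted p = 0.0458 in edgeR's test). The 4 delta and PP cell markers summed to 46.5 to 55.1 CPM in sgLTN1 and 32.8 to 36.9 CPM in sgNT. The 7 stromal, endothelial and immune markers summed to 37.0 to 40.0 CPM in sgLTN1 and 39.5 to 48.4 CPM in sgNT. No marker was at 0 in every library. The part of the alpha, delta and PP cell signal in the values of the 7 genes was not tested.

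Of the 7 genes, 6 had enough counts to be tested and none of them passed an adjusted p of 0.05 in the quasi-likelihood test of edgeR, adjusted by the Benjamini-Hochberg method over 12782 genes, a threshold that 23 genes (0.180%) passed. G6pc2, Abcc8, Kcnj11 and Cacna1c lay higher in all 3 sgLTN1 libraries than in any sgNT library. Such separation upward was seen for 10.1% of all tested genes, and the same 4 genes were those of the 6 with an unadjusted p below 0.05 and a positive difference, against 8.00% of all tested genes. All 6 fitted log2 fold changes were above 0 in this fit, with a median of 0.22 against -0.02 for all tested genes, of which 47.3% were above 0. The median of the 6 was 0.14 with the abundance trend removed and also 0.14 when libraries were scaled by total counts. For G6pc2 the sign turned once the dependence of fold change on abundance was removed, and for Trpm5, at 0.01, it turned in 6 of 17 other settings. The plot of levels by library shows the 7 genes side by side.

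**Figure D1:**
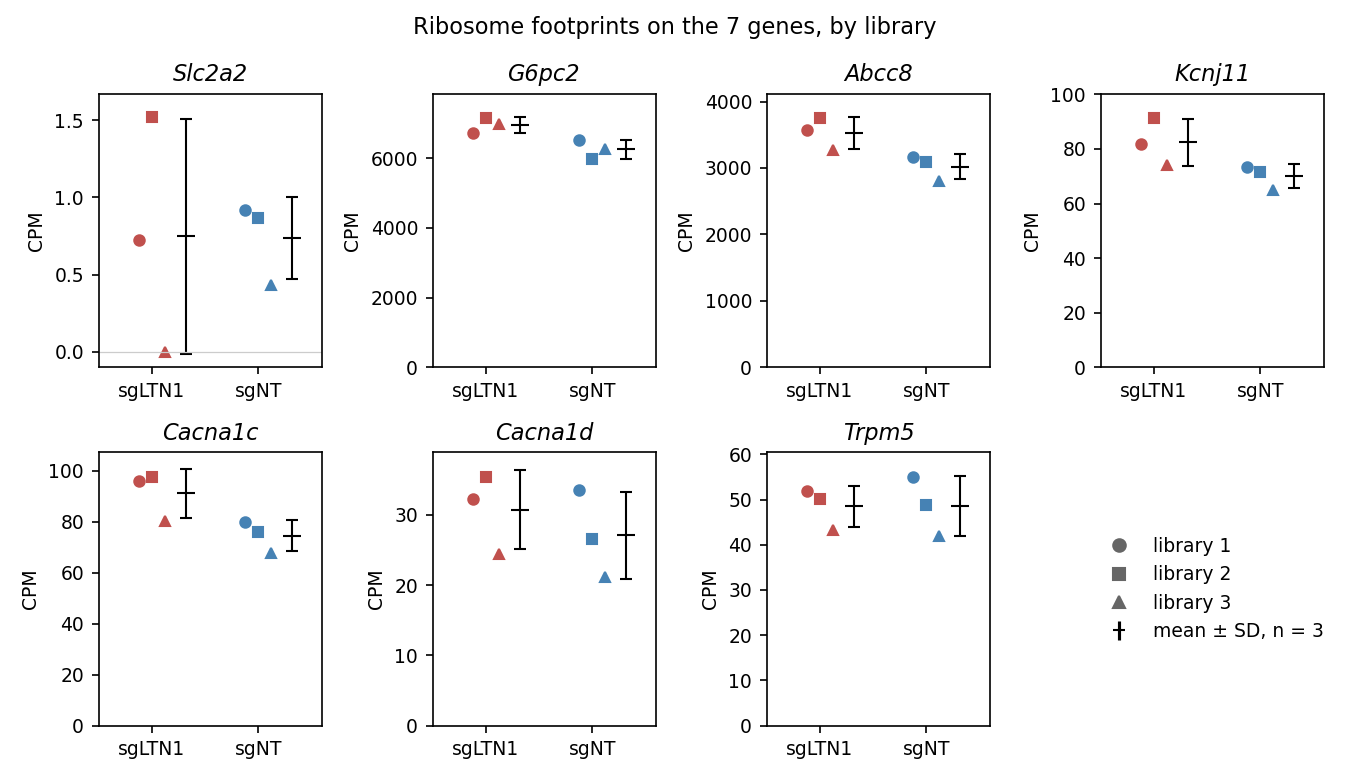
Footprint level of each of the 7 genes in CPM (y axis, each panel with its own linear scale) in sgLTN1 and sgNT libraries; symbols mark libraries 1 to 3 and bars the mean and SD of 3 libraries. In the panels of G6pc2, Abcc8, Kcnj11 and Cacna1c every sgLTN1 point lies above every sgNT point, while the points of Slc2a2, Cacna1d and Trpm5 overlap.

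The first steps are glucose entry and phosphorylation. Slc2a2 (ENSMUSG00000027690.14) encodes GLUT2, the main glucose transporter of rodent beta cells. It held 8, 14 and 0 counts in sgLTN1 libraries 1 to 3, against 4, 7 and 2 counts in sgNT libraries 1 to 3. The gene was thus close to the detection limit in every library of both groups and was left out of the test for low counts. The 0 in sgLTN1 library 3 allows a level of up to 0.616 CPM if 3 counts are taken as the limit. Summed over libraries, sgLTN1 held 22 counts, or 0.875 CPM (95% exact Poisson interval 0.548 to 1.32), and sgNT 13 counts, or 0.761 CPM (0.405 to 1.30). The ratio of sgLTN1 to sgNT was 1.15 with a 95% exact interval of 0.554 to 2.48, so a difference of 2.48-fold upward or one down to 0.554 could not be told from none at this depth. These intervals cover counting error only.

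Slc2a1, which encodes the glucose transporter GLUT1, was counted far more often, with 12590 counts over the 6 libraries against 35 for Slc2a2. It read 326, 352 and 298 CPM in sgLTN1 libraries 1 to 3, against 278, 243 and 241 CPM in sgNT libraries 1 to 3. All sgLTN1 values were above all sgNT values, with a log2 fold change of 0.36 (SE 0.08) that missed the threshold in edgeR's test (adjusted p = 0.0995). Per 1000 Slc2a1 footprints there were 2.22, 4.32 and 0 Slc2a2 footprints in sgLTN1 and 3.30, 3.57 and 1.79 in sgNT. This ratio averaged 2.18 ± 2.16 in sgLTN1 and 2.89 ± 0.959 in sgNT (SD, n = 3 each; two-sided exact permutation test p = 0.7, adjusted p = 0.875 over 5 pairs of genes), where the smallest p that 3 against 3 libraries allow is 0.1.

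G6pc2 (ENSMUSG00000005232.12) took 0.664%, 0.680% and 0.682% of all gene counts in sgLTN1 libraries 1 to 3, against 0.652%, 0.621% and 0.649% in sgNT libraries 1 to 3. After scaling it read 6717, 7149 and 7001 CPM in sgLTN1, against 6541, 5992 and 6268 CPM in sgNT. The groups did not overlap, but the lowest sgLTN1 and the highest sgNT value lay close together. The means were 6956 ± 219 CPM in sgLTN1 and 6267 ± 274 CPM in sgNT (SD, n = 3 each), a fold of 1.11. The log2 fold change was 0.15 (SE 0.05, 95% interval 0.03 to 0.27) with adjusted p = 0.209 in edgeR's test. Fold changes across all tested genes ran upward with abundance, with a median of -0.16 in the tenth of genes with the fewest counts and 0.09 in the tenth with the most, where G6pc2 and Abcc8 lie. With that trend removed its log2 fold change was -0.03 (adjusted p = 0.77), and with scaling by total counts it was 0.08.

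The KATP channel is made by a pair of neighbouring genes. Abcc8 (ENSMUSG00000040136.11) and Kcnj11 (ENSMUSG00000096146.3) lie next to each other, with no other protein-coding gene between them in the RefSeq annotation. Abcc8, the regulatory subunit that binds sulfonylurea drugs, read 3573, 3747 and 3266 CPM in sgLTN1 libraries 1 to 3, against 3165, 3084 and 2806 CPM in sgNT libraries 1 to 3. All sgLTN1 values were above all sgNT values, and library 3 was the lowest of each group. The means were 3529 ± 244 CPM in sgLTN1 and 3018 ± 188 CPM in sgNT (SD, n = 3 each). The log2 fold change of 0.23 (SE 0.07, 95% interval 0.08 to 0.37) had an adjusted p of 0.161 in edgeR's test. It was 0.06 with the abundance trend removed (adjusted p = 0.52). Without sgLTN1 library 3, the lowest of that group, it passed the threshold (0.28, adjusted p = 0.0478), as did 333 genes in all. With any other single library left out, its adjusted p was 0.179 to 0.496 in edgeR's test.

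Kcnj11, the potassium-selective pore, read 82.0, 91.2 and 74.2 CPM in sgLTN1 libraries 1 to 3, against 73.3, 71.5 and 64.9 CPM in sgNT libraries 1 to 3. As for Abcc8, the groups did not overlap and library 3 was the lowest of each group. The mean was 82.5 ± 8.53 CPM in sgLTN1 and 69.9 ± 4.42 CPM in sgNT (SD, n = 3 each), a log2 fold change of 0.24 (SE 0.09, 95% interval 0.04 to 0.44; adjusted p = 0.228 in edgeR's test). With the abundance trend removed it was 0.22 (adjusted p = 0.25).

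The channel needs both proteins in equal number, so the ratio of the 2 footprint counts was followed within each library, where library scaling cancels. The log2 ratio of Abcc8 to Kcnj11 was 5.45, 5.36 and 5.46 in sgLTN1 libraries 1 to 3, against 5.43, 5.43 and 5.43 in sgNT libraries 1 to 3. The sgLTN1 values lay on both sides of the sgNT values, which were nearly alike. Counting error of Kcnj11 alone was 4.11% in sgLTN1 and 5.22% in sgNT. The closeness of the sgNT values therefore does not measure how precisely the ratio is known. The mean was 5.42 ± 0.05 in sgLTN1 and 5.43 ± 0.00 in sgNT, a difference of -0.01 (two-sided exact permutation test p = 1, adjusted p = 1 over the 5 pairs), and without sgLTN1 library 2 it was 0.02. The ratio itself is not a ratio of proteins, since it was not corrected for the lengths of the coding sequences.

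The L-type channels carry the calcium current. Cacna1c (ENSMUSG00000051331.17) encodes the pore subunit Cav1.2 and Cacna1d (ENSMUSG00000015968.19) the pore subunit Cav1.3. Cacna1c read 95.8, 97.5 and 80.1 CPM in sgLTN1 libraries 1 to 3, against 79.8, 75.8 and 67.7 CPM in sgNT libraries 1 to 3. The groups did not overlap, although sgLTN1 library 3 and sgNT library 1 were nearly level. With a mean of 91.1 ± 9.57 CPM in sgLTN1 and 74.4 ± 6.13 CPM in sgNT (SD, n = 3 each), Cacna1c had in this fit the largest log2 fold change of the 6 tested genes, 0.30 (SE 0.09, 95% interval 0.09 to 0.50; adjusted p = 0.176 in edgeR's test). It was 0.27 with the abundance trend removed (adjusted p = 0.197). Without sgLTN1 library 3, the lowest of that group, it passed the threshold (0.38, adjusted p = 0.0389), as did 333 genes in all. With any other single library left out, its adjusted p was 0.186 to 0.511 in edgeR's test.

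Cacna1d was the least counted of the tested genes, with 1262 counts in all. It read 32.3, 35.4 and 24.5 CPM in sgLTN1 libraries 1 to 3, against 33.5, 26.6 and 21.1 CPM in sgNT libraries 1 to 3. The ranges overlapped over most of their length. The log2 fold change was 0.21 (SE 0.16, 95% interval -0.15 to 0.57; adjusted p = 0.583 in edgeR's test), which leaves room for a rise as large as that of Cacna1c. Single libraries moved it, to 0.09 without sgNT library 3, 0.11 without sgLTN1 library 2, 0.33 without sgLTN1 library 3 and 0.39 without sgNT library 1, and scaling by total counts gave 0.14. Between libraries it varied by 18.4% of its mean in sgLTN1 and 22.8% in sgNT, where counting error alone gives 6.90% in sgLTN1 and 8.51% in sgNT.

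The log2 ratio of Cacna1d to Cacna1c was -1.57, -1.46 and -1.71 in sgLTN1 libraries 1 to 3, against -1.25, -1.51 and -1.68 in sgNT libraries 1 to 3. The ranges overlapped, and the mean was -1.58 ± 0.13 in sgLTN1 and -1.48 ± 0.21 in sgNT, a difference of -0.10 (two-sided exact permutation test p = 0.6, adjusted p = 0.875 over the 5 pairs). Without sgNT library 1 it was 0.02. In the RefSeq annotation the span of Cacna1c overlaps Dcp1b and that of Cacna1d overlaps Dcp1a and Chdh, and whether counting used strand is not given in the sources used here. Over the 6 libraries Dcp1b held 85 counts against 3624 for Cacna1c. Dcp1a held 290 and Chdh 43 against 1262 for Cacna1d. The part of these overlapping genes in the values above was not tested.

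Calcium that has entered opens the cation channel TRPM5. Trpm5 (ENSMUSG00000009246.15) read 52.0, 50.2 and 43.4 CPM in sgLTN1 libraries 1 to 3, against 55.0, 48.7 and 41.9 CPM in sgNT libraries 1 to 3. The groups overlapped fully, with means of 48.5 ± 4.55 CPM in sgLTN1 and 48.5 ± 6.58 CPM in sgNT (SD, n = 3 each). The log2 fold change was 0.01 (SE 0.11, 95% interval -0.23 to 0.25; adjusted p = 0.983 in edgeR's test), an interval that holds the values of G6pc2, Abcc8 and Kcnj11 too. Its sign followed single libraries, with -0.07 without sgNT library 3, -0.04 without sgLTN1 library 1 and -0.00 without sgLTN1 library 2. Trpm4, the other calcium-activated channel of its family, read 20.1, 18.6 and 19.1 CPM in sgLTN1, against 19.9, 17.1 and 17.0 CPM in sgNT. The log2 ratio of Trpm5 to Trpm4 was 1.33 ± 0.13 in sgLTN1 and 1.42 ± 0.11 in sgNT, a difference of -0.10 (two-sided exact permutation test p = 0.4, adjusted p = 0.875 over the 5 pairs). It lay between -0.02 (without sgLTN1 library 3) and -0.16 (without sgNT library 3) with single libraries left out.

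**Figure D2:**
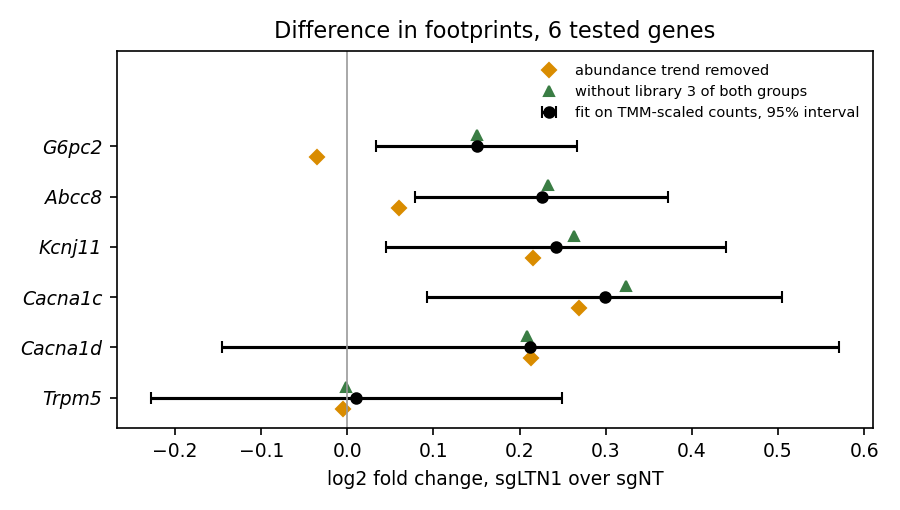
Log2 fold change of sgLTN1 over sgNT (x axis) for the 6 tested genes: black points and bars are the fit on TMM-scaled counts with its 95% interval, orange diamonds the value with the abundance trend removed and green triangles the value without library 3 of both groups. The diamonds of G6pc2 (-0.03) and Abcc8 (0.06) lie below their black points (0.15 and 0.23), whereas those of Kcnj11, Cacna1c and Cacna1d lie near theirs.

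The genes also shared a pattern between replicate libraries. Abcc8, Kcnj11, Cacna1c, Cacna1d and Trpm5, that is 5 of the 6 tested genes, had their lowest value in library 3 of both groups, which was so for 19.4% of all tested genes. G6pc2 did not, with its lowest values in sgLTN1 library 1 and sgNT library 2. Relative to the group mean, library 3 lay lower by between 0.11 (Abcc8) and 0.31 (Cacna1d) on the log2 scale in sgLTN1, and by between 0.10 (Abcc8) and 0.33 (Cacna1d) in sgNT. Library 3 was the shallowest sgLTN1 library, while in sgNT library 1 had fewer counts than library 3. The part of depth or of library preparation in this pattern was not tested. When library 3 of both groups was left out, a setting chosen after the values had been seen, Cacna1c (0.32, adjusted p = 0.022) and Abcc8 (0.23, adjusted p = 0.0286) passed the threshold in edgeR's test, as did 519 genes in all. Kcnj11 (0.26, adjusted p = 0.075) and G6pc2 (0.15, adjusted p = 0.19) did not.

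**Figure D3:**
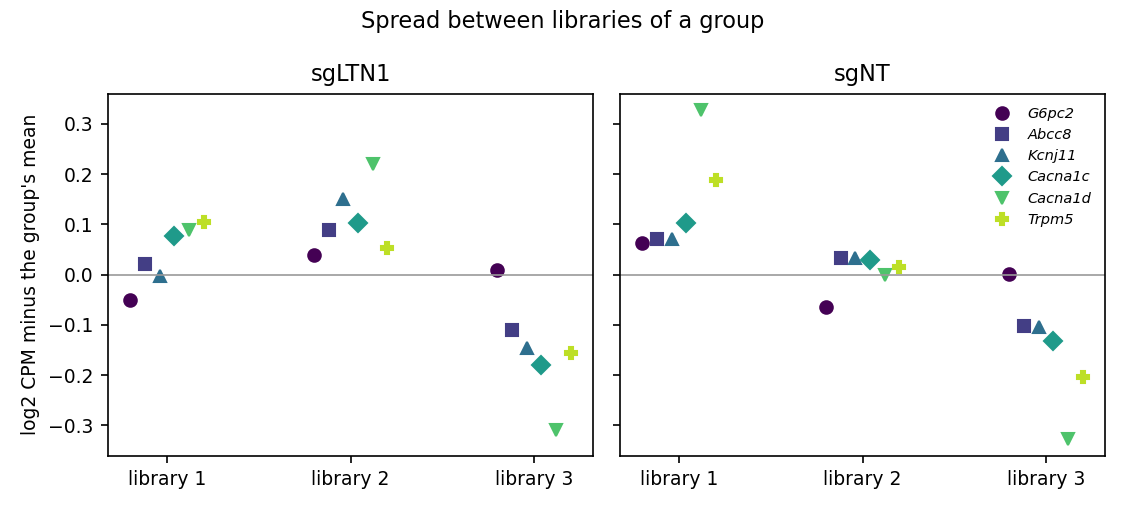
Log2 CPM minus the mean of the gene's own group (y axis) in libraries 1 to 3 of sgLTN1 (left) and sgNT (right), with 1 symbol per tested gene. In library 3 of both groups the points of Abcc8, Kcnj11, Cacna1c, Cacna1d and Trpm5 lie below 0 and that of G6pc2 close to 0.

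The authors' deposited table, made with DESeq2, gave an adjusted p to 5 of the 7 genes and called Abcc8 (log2 fold change 0.25, SE 0.08, adjusted p = 0.0443). Of the 2697 genes with an adjusted p there, 6.79% were called higher. The authors' deposited table gave Cacna1c 0.32 (SE 0.12, adjusted p = 0.0697), G6pc2 0.17 (SE 0.07, adjusted p = 0.0972), Kcnj11 0.26 (SE 0.12, adjusted p = 0.14) and Trpm5 0.03 (SE 0.14, adjusted p = 0.922), and no adjusted p to Cacna1d and Slc2a2. The log2 fold changes are close to those of the edgeR fit. Adjustment was over 2697 genes in DESeq2 and over 12782 in edgeR and limma-voom, so adjusted p-values are not at a like threshold. The unadjusted p of Abcc8 was 0.00343 in DESeq2, 0.00315 in limma-voom and 0.00611 in edgeR's test. A limma-voom fit called none of the 6 tested genes.

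The pathway and its neighbouring steps were followed in 7 lists that together name 132 genes, 113 of them tested. The lists include the 7 genes themselves, 6 of them tested. G6pc2 is on the glucose list, Abcc8 and Kcnj11 on that of potassium channels. Cacna1c and Cacna1d are on the calcium channel list and Trpm5 on the TRP list. All 6 are counted above 0 there. None of the 113 passed the threshold in edgeR's test, and none in limma-voom. With an unadjusted p below 0.05 there were 28, of which 19 were higher (8.00% of all tested genes were) and 9 lower (7.56% of all tested genes were). Of the 19 higher, 4 were G6pc2, Abcc8, Kcnj11 and Cacna1c again. DESeq2 adjusted over fewer genes, 2697 rather than 12782, so its calls are not at a like threshold with those of edgeR and limma-voom. It gave an adjusted p to 34 of the list genes and called 7 of these, all higher, where it called 183 of 2697 genes (6.79%) higher over the whole table. They were Slc2a1, Abcc8, Cacna2d1, Stim1, Atp2a3, Atp2b2 and, outside the rule for named genes and chosen after its value was seen, the plasma membrane calcium pump gene Atp2b1 (0.33, adjusted p = 0.047).

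Around glucose uptake and trapping, 7 of 11 tested genes were above 0 with a median of 0.06. That median was -0.01 with total counts and without sgNT library 3, and 0.15 without sgNT library 2. Beside Slc2a1, G6pc3, the widely expressed glucose-6-phosphatase, read 200 ± 7.49 CPM in sgLTN1 and 171 ± 9.59 CPM in sgNT (log2 fold change 0.22, SE 0.07; adjusted p = 0.167 in edgeR's test). Among the potassium channels, 13 of 17 were above 0 with a median of 0.16, which was 0.08 with total counts and 0.28 without sgNT library 1. Kcnma1, the large-conductance calcium-activated channel, read 82.4 ± 3.80 CPM in sgLTN1 and 66.8 ± 7.87 CPM in sgNT (log2 fold change 0.30, SE 0.09). Kcnk16, a background channel of islets, read 12.4 ± 1.11 CPM in sgLTN1 and 8.91 ± 2.16 CPM in sgNT (0.49, SE 0.17).

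The voltage-gated calcium channel subunits were split, with 8 of 18 above 0 and a median of -0.01. The sign of that median followed single libraries, with 0.12 without sgLTN1 library 1, 0.11 without sgLTN1 library 2, -0.08 without sgLTN1 library 3 and 0.09 without sgNT library 3. Cacna2d1, an auxiliary alpha2-delta subunit that takes part in the surface delivery of these channels, read 131 ± 20.3 CPM in sgLTN1 and 97.1 ± 13.1 CPM in sgNT (0.44, SE 0.12; adjusted p = 0.149 in edgeR's test). The T-type pore gene Cacna1h was at 0.60 (SE 0.17), on 377 counts in all. The cytosolic beta subunit gene Cacnb1 lay at -1.33 (SE 0.39), on only 102 counts in all, with 1.62 ± 0.642 CPM in sgLTN1 and 4.07 ± 1.68 CPM in sgNT. Neither passed the threshold (adjusted p = 0.152 and 0.162 in edgeR's test). The pores and auxiliary subunits thus lay on both sides of 0.

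Of the other channels, 9 of 15 TRP genes were above 0 with a median of 0.04, which was -0.04 with total counts and 0.11 without sgNT library 1. The endolysosomal channel gene Mcoln3 was at -1.06 (SE 0.38) on only 99 counts in all, and its groups overlapped. Trpm3 was at -0.46 (SE 0.20) on 237 counts and Trpv2 at 0.20 (SE 0.09) on 1186 counts. Among voltage-gated sodium channels 3 of 11 were above 0 with a median of -0.12, which was -0.01 without sgNT library 3 and 0.02 without library 3 of both groups. The auxiliary subunit gene Scn2b was at -0.95 (SE 0.28) on 86 counts in all, the pore gene Scn1a at -0.59 (SE 0.19) and the pore gene Scn3a at 0.18 (SE 0.11).

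Downstream of calcium entry, 15 of 21 genes of calcium stores and calcium exit were above 0 with a median of 0.11, which was 0.03 with total counts, 0.06 without sgLTN1 library 1 and 0.18 without sgLTN1 library 3. With an unadjusted p below 0.05 there were 7 higher and 2 lower. Stim1, the calcium sensor of the endoplasmic reticulum that opens store-operated channels, read 100.5 ± 4.70 CPM in sgLTN1 and 79.1 ± 4.62 CPM in sgNT (0.35, SE 0.07; adjusted p = 0.0908 in edgeR's test). The plasma membrane pump gene Atp2b2 was at 0.30 (SE 0.08) and the reticulum pump gene Atp2a3 at 0.27 (SE 0.08). The 2 lower ones, named after their values were seen, were the ryanodine receptor genes Ryr1 (-0.63, SE 0.21, adjusted p = 0.197 in edgeR's test) and Ryr3 (-0.49, SE 0.22, adjusted p = 0.312), which encode calcium release channels of the reticulum. Genes of calcium-triggered exocytosis were split, with 11 of 20 above 0 and a median of 0.03. That median was -0.05 with total counts, -0.06 without sgNT library 2, -0.02 without sgLTN1 library 1, -0.03 without sgLTN1 library 3 and 0.07 without sgLTN1 library 2. There the SNARE genes Snap25 (-0.34, SE 0.10) and Stx1a (-0.69, SE 0.28, on 140 counts in all) lay below 0 and the synaptotagmin gene Syt13 (0.24, SE 0.07) above it.

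**Figure D4:**
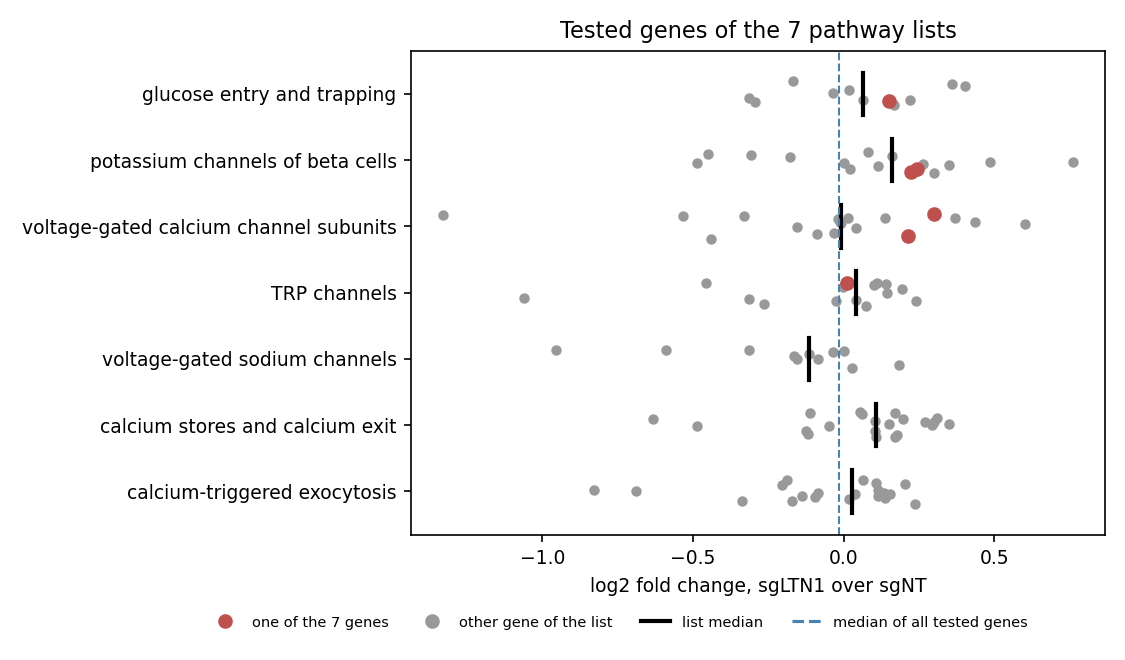
Log2 fold change of sgLTN1 over sgNT (x axis) for the tested genes of 7 pathway lists (y axis, points spread vertically for legibility); red points are the tested ones of the 7 genes, black bars list medians and the dashed line the median of all tested genes (-0.02). The red points lie at 0.01 to 0.30, and the list medians between -0.12 for sodium channels and 0.16 for potassium channels.

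Over the 6 libraries, the genes whose log2 CPM ran most like each of the tested genes were sought among 7513 others with a mean of at least 10 CPM. For Cacna1c these were Man2b2 (Pearson r = 0.999) and the channel's own auxiliary subunit gene Cacna2d1 (r = 0.999). For Kcnj11, Abcg1 was second in order (r = 0.997). For Abcc8 they were Slc6a17 (r = 0.995) and Wls (r = 0.994), and for G6pc2 Vegfa (r = 0.994) and Gm49394 (r = 0.993). Cacna1d ran most like Noc2l (r = 0.997) and Lclat1 (r = 0.992), and Trpm5 like Pcdhb11 (r = 0.996) and Rab3gap1 (r = 0.990). All points share their libraries and depth, and the pairs were picked as the highest among 7513 candidates over 6 points, so the values are a description.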

How the data were processed

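The authors deposited raw counts per gene, one column per library, with Ensembl identifiers and symbols. Per the submitters' processing notes, the tools were STAR 2.7.11a, Bowtie2 2.5.4, featureCounts 2.12.3, DESeq2 1.38.3, fastp 0.23.4, SAMtools 1.9 and UMI-tools 1.1.2, with mouse build GRCm39. The sources used here do not give annotation, strand or footprint selection. A second table holds, per the file headers, the authors' DESeq2 results: a log2 fold change, a mean normalized count as a signal level, a Wald statistic as a score, and a p-value with its adjusted form. Its 227 calls were also those of DESeq2 1.42.0 when rerun.

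Groups follow the genotype label. The tests used edgeR 4.0.16 (limma 3.58.1, R 4.3.3): filterByExpr (12782 of 21652 genes kept), TMM factors 0.954 to 1.04, quasi-likelihood test of sgLTN1 over sgNT with group as the only term, Benjamini-Hochberg adjustment over all tested genes, threshold 0.05. Standard errors and 95% intervals come from the test statistic. The biological coefficient of variation was 8.92%. Log CPM used a prior count of 2. Ratios of 5 gene pairs were compared by a two-sided exact permutation test over 20 labellings, on the log2 scale except Slc2a2 to Slc2a1, which holds a 0. Replicates differed by more than sampling noise (chi-square per degree of freedom 2.55 or more). The fit was tested on simulated data, and no value of that test is used. Alternatives covered scaling, filters, tests, abundant genes, the abundance trend (loess of each library against mean log CPM), a replicate block and libraries left out.

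The 7 genes, the lists and the tests were chosen with earlier results of these data known. Named outside the 7 are Ltn1, the pair partners, the 3 genes of smallest p in each pathway list, and for each tested gene the 2 with the highest Pearson r. The RefSeq table is of GRCm38, so it served only for neighbours and overlaps. Coding lengths were not used, so levels are not compared between genes. Of the 5 pairs, 1 is not reported here, nor are some genes that the naming rule selects.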

Additional observations from a re-analysis of the deposited data

How the results depend on the processing

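In 13 of 17 other settings none of the 7 genes passed the threshold, and Kcnj11, Cacna1c, Abcc8 and Cacna1d stayed above 0 in all 17. These settings reuse the same 6 libraries or a part of them, so they are not independent checks. DESeq2, which adjusted over 2697 genes only, called 1 (Abcc8), and the fit without library 3 of both groups called 2. Leaving out single libraries gave 0 to 2 (2 without sgLTN1 library 3, Abcc8 and Cacna1c). Of all genes, 23 passed in the reported fit, 42 with total counts, 222 with no filter, 227 with DESeq2, 40 with limma-voom, 96 with the robust fit, 519 without library 3 of both groups, and 4 to 333 without single libraries. With a replicate block, 609 genes and 2 of the 7 (Abcc8, adjusted p = 0.0163; Cacna1c, adjusted p = 0.0259) passed. No label says that equal numbers mark a shared culture, so the numbers were not taken as pairs. Deviations from group means of same-numbered libraries correlated at -0.05, 0.07 and 0.09 over all tested genes. These values cannot decide on pairing, since low-count genes weigh as much as others and libraries of unlike number were not compared.

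The sign turned for G6pc2 with the abundance trend removed (-0.035), and for Trpm5 with total counts (-0.064), with the trend removed (-0.0048), without library 3 of both groups (-0.0012) and among single libraries left out (-0.072 to 0.12). Leaving out single libraries moved the Abcc8 to Kcnj11 difference between -0.029 and 0.021, Cacna1d to Cacna1c between -0.20 and 0.015, Trpm5 to Trpm4 between -0.16 and -0.023, and Slc2a2 per 1000 Slc2a1 between -1.78 and 0.38. Medians of the 7 genes and of the lists moved by more than the spread between libraries in 24 of 136 comparisons. The causes were not tested. Of the 7 genes, depth limits Slc2a2 most. Cacna1d had the next fewest counts, but it varied between libraries (18.4% in sgLTN1, 22.8% in sgNT) by more than counting error (6.90% and 8.51%).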
